A study of Mus musculus with 4 samples.

Results

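RNA of lysosomal genes was measured in macrophages from the peritoneal cavity of C57BL/6 mice that had eaten a high-fat or a control diet. The set held 36 genes picked by symbol, of 24625 genes in the count tables: 11 cathepsins, 6 glycosidases, the precursors Psap and Grn, 3 genes of lipid handling, 6 membrane proteins, 4 subunits of the proton pump and the 4 MiT transcription factors. The high-fat diet supplied 60% of its energy as fat, and the control diet was standard chow. In both groups the feeding lasted 12 weeks, and 3% thioglycollate medium was given into the peritoneal cavity 4 days before the cells were taken, so every library came from elicited rather than resident cells. Each diet had 2 libraries of total RNA depleted of ribosomal RNA, and the labels do not say whether a library came from 1 mouse or a pool. The labels state neither age nor sex. P-values therefore measure the spread between these samples, which may be technical.

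The lysosome is the acidic compartment in which macrophages break down what they take up. A proton pump, the V-ATPase, acidifies it. Hydrolases that work at low pH then cut proteins, glycans and lipids, and transporters return the products to the cell. The MiT factors Tfeb, Tfec, Tfe3 and Mitf bind E-box sequences, and in human and mouse cells Tfeb is known for switching on lysosomal genes through a longer form of that sequence called the CLEAR element. Macrophages that take up much lipid or debris are known for large lysosomes, and Lipa, Npc1 and Npc2 release cholesterol from them.

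Promoter letters are shown because the set holds the MiT factors together with genes whose promoters carry the letters these factors are known to bind. RefSeq promoters on GRCm38.p6, from 250 bases before to 50 bases after the annotated start, were found for 30 of the 36 genes, and those without an entry were Ctsb, Ctsh, Ctse, Npc1, Atp6v0d2 and Atp6v1h. The core of the CLEAR element, TCACGTGA, was searched as exact letters; it reads the same on both strands and contains the E-box CACGTG. It was present in 6 of the 30 genes (20.0%), against 304 of 27025 genes in the whole promoter table (1.12%). By role it was in 0 of 6 papain-like cathepsins, 1 of 6 glycosidases, both other cathepsins and both pump subunits that had an entry. The E-box, inside the core or elsewhere, was present in 10 of the 30 genes (33.3%), against 8.09% of all genes in the table. The 6 genes with the core are printed below as 100-base stretches, 5′ to 3′ on the strand of the gene, with the core or a separate E-box in capitals.
Ctsd: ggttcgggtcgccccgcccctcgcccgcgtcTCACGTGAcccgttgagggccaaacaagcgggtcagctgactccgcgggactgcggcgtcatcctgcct
Ctsa: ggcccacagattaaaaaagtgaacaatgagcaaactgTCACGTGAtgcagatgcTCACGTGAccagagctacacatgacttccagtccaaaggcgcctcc
Gla: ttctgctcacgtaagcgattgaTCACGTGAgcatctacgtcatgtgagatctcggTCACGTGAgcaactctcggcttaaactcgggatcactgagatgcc
Mcoln1: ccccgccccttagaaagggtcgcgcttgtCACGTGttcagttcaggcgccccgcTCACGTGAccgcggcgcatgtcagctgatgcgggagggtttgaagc
Atp6v0d1: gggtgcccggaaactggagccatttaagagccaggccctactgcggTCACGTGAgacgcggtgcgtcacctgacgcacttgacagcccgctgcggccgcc
Atp6v1a: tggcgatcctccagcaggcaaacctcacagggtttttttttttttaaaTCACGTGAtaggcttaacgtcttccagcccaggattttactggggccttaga

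On GRCm38.p6 these stretches lie at chr7:142387858-142387957 (Ctsd, minus strand), chr2:164833723-164833822 (Ctsa, plus), chrX:134601156-134601255 (Gla, minus), chr8:3500419-3500518 (Mcoln1, plus), chr8:105566015-105566114 (Atp6v0d1, minus) and chr16:44139340-44139439 (Atp6v1a, minus). Ctsa and Gla each hold 2 copies of the core. In Atp6v0d1 the core starts at base -4 before the annotated start, and in Atp6v1a at base -132. None of the 4 MiT factor genes held either motif in this window, while the Lamp1 promoter held 4 E-boxes and no core. A match describes the letters only.

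The libraries held 45658551 and 40527591 gene counts with the high-fat diet, and 39846646 and 39347347 with the control diet. The macrophage genes Emr1, Csf1r, Lyz2, Itgam, Cd14 and Mertk together took 1.87% and 2.26% of gene counts in high-fat libraries, against 2.56% and 2.40% in control libraries. Lyz2 held most of these counts (761262 and 838788, against 923008 and 857699). The log2 fold changes of the 6 genes were all below 0, from -0.69 for Mertk to -0.077 for Emr1. Markers of other cells were present at low levels: the summed level of 14 markers of mesothelial cells and fibroblasts was 175 and 86.3 CPM (counts scaled to a common library total with TMM factors) in high-fat libraries, against 20.9 and 28.4 CPM in control libraries. Much of this sum came from Dcn (81.9 and 47.8, against 10.9 and 18.3 CPM) and Col3a1 (49.7 and 18.8, against 3.88 and 4.22 CPM). Msln, Upk3b, Krt19, Krt18 and Wt1 were each below 1 CPM in every library. For 12 neutrophil markers the sums were 58.7 and 55.5 CPM with the high-fat diet, against 90.9 and 93.9 CPM with the control diet. For 8 B cell markers they were 64.8 and 163 CPM, against 63.1 and 60.4 CPM. For 7 dendritic cell markers they were 9.33 and 14.9 CPM, against 16.1 and 16.7 CPM, and for 8 markers of eosinophils and mast cells 36.5 and 52.2 CPM, against 49.7 and 47.3 CPM, each with the high-fat libraries before the control libraries. These sums hide opposite values: Ccr7 carried much of the dendritic cell sum (5.49 and 10.6 CPM against 5.34 and 5.38 CPM), while the list's median log2 fold change was -1.69, with Cd209a at -2.34 and Flt3 at -1.69. The eosinophil genes Siglecf and Ccr3 had -1.32 and -2.22, and the mast cell gene Cpa3 0.11. The edgeR test called 1 of 11 tested mesothelial and fibroblast markers (Lum) and 1 of 8 B cell markers (Igj) higher. Lower were 2 of 8 neutrophil markers (Mmp9, Csf3r), 1 of 7 dendritic cell markers (Cd209a) and 1 of 6 macrophage genes (Mertk). Over all genes it called 0.612%. Its unadjusted p was under 0.05 for 81.8% of the mesothelial and fibroblast, 25.0% of the B cell and 62.5% of the neutrophil markers. The share was 71.4% for dendritic cell markers, 33.3% each for macrophage genes and for eosinophil and mast cell markers, and 17.0% for all genes. Of the 49 markers of other cells only the neutrophil elastase gene Elane had no count in any library. The part of these cells in the results below was not tested, and in such bulk samples fewer cells of a type cannot be told apart from less RNA per cell.

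Lysosomal genes made up a large part of the macrophage transcriptome with either diet. The 36 genes took 9.25% and 8.03% of all gene counts in the high-fat libraries, against 9.90% and 9.13% in the control libraries. The Wilson 95% intervals, which cover counting error only, ran from 9.25% to 9.26% and from 8.02% to 8.04% in the high-fat libraries, and from 9.89% to 9.91% and from 9.12% to 9.13% in the control libraries. The diets overlapped, since high-fat replicate 1 lay above control replicate 2. Cathepsins alone took 5.03% and 4.41% of gene counts in high-fat libraries, against 5.29% and 5.02% in control libraries, and MiT factors at most 0.0275% in any library.

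**Figure D1:**
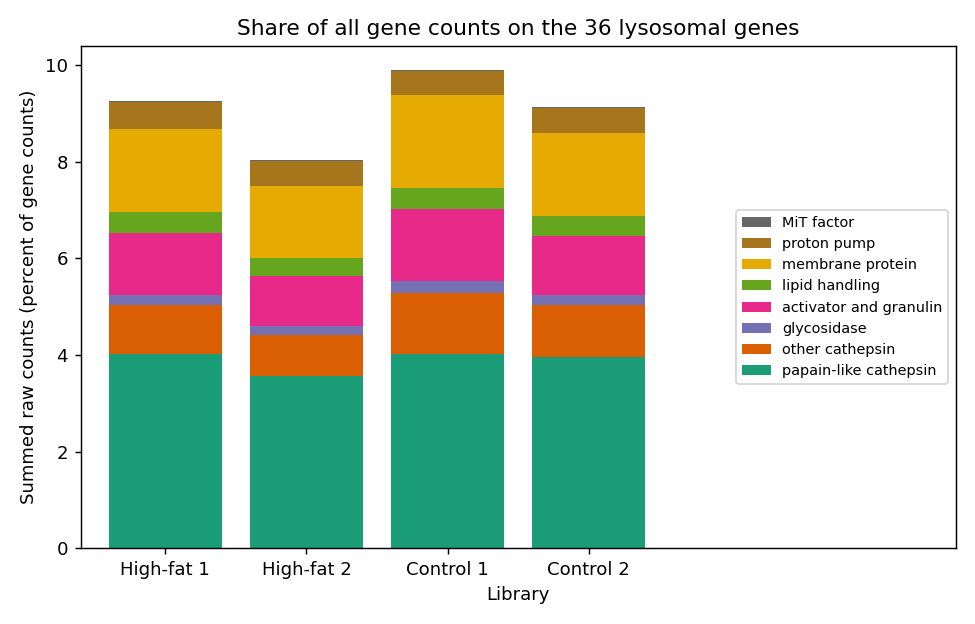
Raw counts on the 36 lysosomal genes as a percent of all gene counts (y axis), stacked by role, for each of the 4 libraries (x axis). The sums are 9.25% and 8.03% with the high-fat diet, against 9.90% and 9.13% with the control diet, and cathepsins make up more than any other role.

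To compare levels between genes, CPM was divided by the length of the merged exons in kilobases. Ctss, a cysteine protease that trims the invariant chain of MHC class II, ranked 2 among the 12747 genes tested. It reached 8839 and 8801 CPM per kb in high-fat libraries, against 8483 and 10160 CPM per kb in control libraries, and the diets overlapped. Next among the lysosomal genes were the aspartic protease Ctsd (4599 and 3971 against 5887 and 5089 CPM per kb) and the cysteine protease Ctsl (5159 and 3861 against 4749 and 4613 CPM per kb), each with the high-fat libraries before the control libraries. Psap, the precursor of the saposins that present lipids to hydrolases, stood at 4513 and 3731 CPM per kb with the high-fat diet, against 5293 and 4375 CPM per kb with the control diet. Ctsb and the glycoprotein gene Gpnmb completed the 6 highest, which together took 7.0% and 5.98% of gene counts in high-fat libraries, against 7.67% and 6.95% in control libraries. At the low end were Ctse, an aspartic protease of endosomes, at a mean of 1.11 CPM per kb over the 4 libraries, Tfeb at 1.75 and Gaa at 2.73 CPM per kb.

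**Figure D2:**
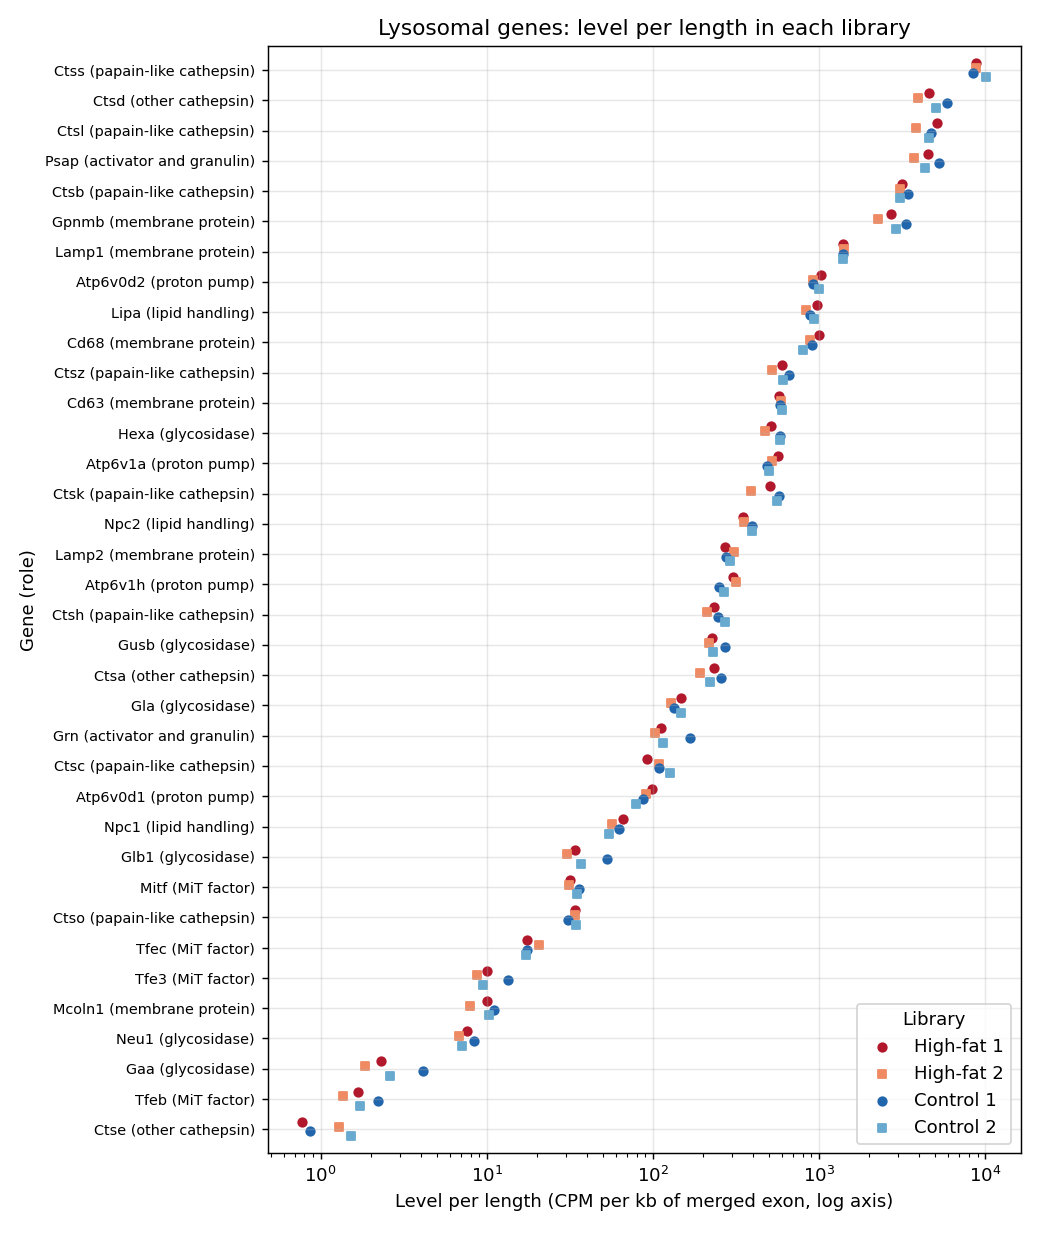
Level of each lysosomal gene in CPM per kb of merged exon (x axis, log scale), by gene from highest to lowest mean (y axis), with 1 point per library. Levels run from 1.11 CPM per kb for Ctse to 9071 CPM per kb for Ctss as means over the 4 libraries, and the spread between genes is far wider than that between diets.

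No lysosomal gene passed the test for a difference between the diets. The edgeR quasi-likelihood test called 0 of the 36 genes at an adjusted p of 0.05, against 78 of the 12747 genes tested (0.612%). DESeq2 also called 0 of the 36 (2.87% of all genes), as did limma-voom (0.220% of all genes). At an unadjusted p under 0.05 there were 5 of the 36 genes (13.9%), against 17.0% of all genes, a share near that background. All 36 genes passed the filter on low counts. The 95% interval of the log2 fold change reached a median of 0.28 to either side of the estimate, from 0.21 for the narrowest gene to 0.79 for the widest, and these intervals are not adjusted for the number of genes tested. Gaa, Glb1, Ctsk, Ctsd and Atp6v1h lay beyond their own intervals' reach from 0 and were still not called.

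Most lysosomal genes outside the pump had values slightly below the controls. The log2 fold change, high-fat over control, was below 0 in 26 of the 36 genes (72.2%), against 50.8% of all genes, with a median of -0.17 against -0.0054 over all genes. In 14 of the 36 genes the 2 high-fat libraries were the lowest of the 4 (24.9% of all genes), and in 4 they were the highest (26.1% of all genes). The other 18 genes overlapped, so that 18 of 36 did not, against 51.0% of all genes. The median size of the log2 difference was 0.17 between the high-fat libraries and 0.15 between the control libraries. The fold change between diets had a median size of 0.17. It compares groups of 2 libraries, which vary less than single libraries, so these sizes are not like for like. High-fat replicate 2 was the lowest library for 21 of the 36 genes, and control replicate 1 the highest for 17. Without control replicate 1 the median of the 36 genes was -0.084, and without high-fat replicate 2 it was -0.081.

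**Figure D3:**
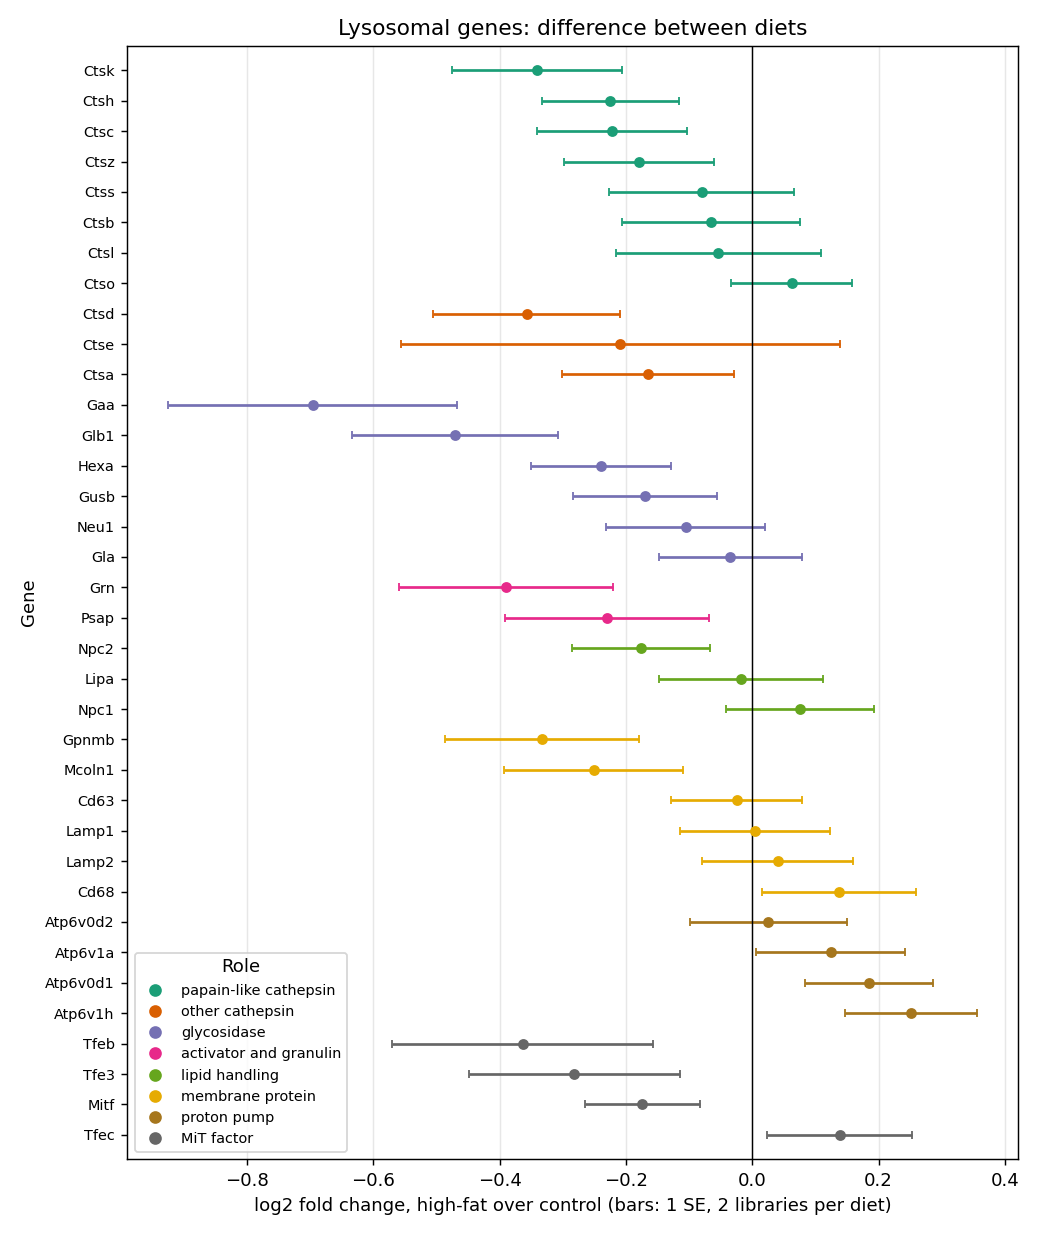
log2 fold change, high-fat over control (x axis), of each lysosomal gene (y axis, grouped by role), with bars of 1 SE from edgeR (2 libraries per diet). All 6 glycosidases lie below 0 and all 4 pump subunits above 0, although Neu1 and Atp6v0d2 change side with the GC and length trend removed and Gla, Neu1 and Atp6v0d2 when single libraries are left out, and 0 of the 36 genes passed the adjusted p of 0.05.

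Cathepsins, the proteases of the lysosome, were below 0 in 10 of 11 genes, with a median log2 fold change of -0.18 and 0 called; Ctso changed side with the GC and length trend removed, and Ctsb, Ctsl, Ctso, Ctss and Ctse when single libraries were left out. Ctsk, a collagen-degrading cysteine protease best known from osteoclasts, had 800 and 620 CPM in high-fat libraries, against 915 and 883 CPM in control libraries. Both high-fat libraries were lower, but they also differed from each other by more than the gap to the controls, and the log2 fold change was -0.34 ± 0.14 (SE; adjusted p = 0.254, edgeR quasi-likelihood test). Ctsd had 8987 and 7759 CPM with the high-fat diet, against 11504 and 9944 CPM with the control diet, also without overlap (-0.36 ± 0.15, adjusted p = 0.269). The aminopeptidase Ctsh had 380 and 342 CPM in high-fat libraries, against 400 and 444 CPM in control libraries, which left the groups apart by a narrow margin (-0.22 ± 0.11, adjusted p = 0.326). Ctsc, the dipeptidyl peptidase that activates granule proteases, had 229 and 269 CPM with the high-fat diet, against 269 and 312 CPM with the control diet, and the diets met in the middle (-0.22 ± 0.12, adjusted p = 0.371).

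The abundant cysteine proteases Ctss, Ctsl and Ctsb had smaller fold changes, but with the trend of GC content and exon length removed Ctss had -0.23 and Ctsl -0.22, beside -0.27 for Ctsd and -0.29 for Ctsh. Ctss, at chr3:95330708-95360327 on mm9 (plus strand, 8 exon blocks), had 12021 and 11970 CPM in high-fat libraries, against 11537 and 13818 CPM in control libraries, a log2 fold change of -0.080 ± 0.15. Its neighbour on the same strand is Ctsk, at chr3:95303132-95313309 (8 exon blocks). Ctsl had 10169 and 7610 CPM with the high-fat diet, against 9359 and 9092 CPM with the control diet (-0.053 ± 0.16); the high-fat libraries enclosed the controls. Ctsb had 15069 and 14605 CPM with the high-fat diet, against 16371 and 14675 CPM with the control diet (-0.065 ± 0.14). Of the others, the carboxypeptidase Ctsz had a log2 fold change of -0.18, the serine carboxypeptidase Ctsa -0.17, Ctse -0.21 and Ctso, the only cathepsin above 0, 0.063. Exons of Ctsb overlap those of Fdft1, of Ctsz those of Nelfcd, and of Ctsa those of Neurl2 and Pltp, all on the other strand. The labels do not state whether reads were assigned by strand, so these 3 values are uncertain.

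Glycosidases, which remove sugars from glycans, glycogen and glycolipids, were below 0 in all 6 genes, with a median log2 fold change of -0.20 and 0 called, but Neu1 turned to 0.066 with the GC and length trend removed, and Neu1 and Gla changed side when single libraries were left out. In 4 of the 6 the high-fat libraries were the lowest pair, against 24.9% of all genes, and 6 genes are too few to compare with that share. Gaa, the glucosidase that digests glycogen, at chr11:119129281-119147012 on mm9 (plus strand, 20 exon blocks), had the smallest p of the set. It had 410 and 279 counts, or 8.83 and 6.98 CPM, in high-fat libraries, against 631 and 387 counts, or 15.7 and 9.97 CPM, in control libraries. The diets did not overlap, although the controls were far apart, and the log2 fold change was -0.70 ± 0.23 (adjusted p = 0.203, edgeR). Glb1, the beta-galactosidase, at chr9:114310196-114383497 (plus strand, 16 exon blocks), had 84.9 and 76.0 CPM with the high-fat diet, against 131 and 92.0 CPM with the control diet (-0.47 ± 0.16, adjusted p = 0.220). Again control replicate 1 stood above the other 3 libraries, and exons of Glb1 overlap those of Tmppe on the same strand. Hexa, a beta-hexosaminidase subunit, had 957 and 883 CPM with the high-fat diet, against 1082 and 1091 CPM with the control diet, with close controls (-0.24 ± 0.11, adjusted p = 0.305). The beta-glucuronidase Gusb had a log2 fold change of -0.17, the sialidase Neu1 -0.11 and the alpha-galactosidase Gla -0.035.

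Without high-fat replicate 1, 4 of the 36 genes were called lower by edgeR: Gaa (log2 fold change -0.88, adjusted p = 0.00422), Glb1 (-0.55, adjusted p = 0.00883), Ctsk (-0.53, adjusted p = 0.0245) and the progranulin gene Grn (-0.46, adjusted p = 0.0430). In that fit 389 of 13051 genes (2.98%) were called lower, so calls were more frequent over all genes there too, and it rests on 1 high-fat library. Over the 14 alternative fits the adjusted p of Gaa ran from 0.00422 to 0.661, of Ctsk from 0.0245 to 0.788 and of Grn from 0.0430 to 0.834, and over the 13 that held Glb1 its own ran from 0.00883 to 0.637.

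**Figure D4:**
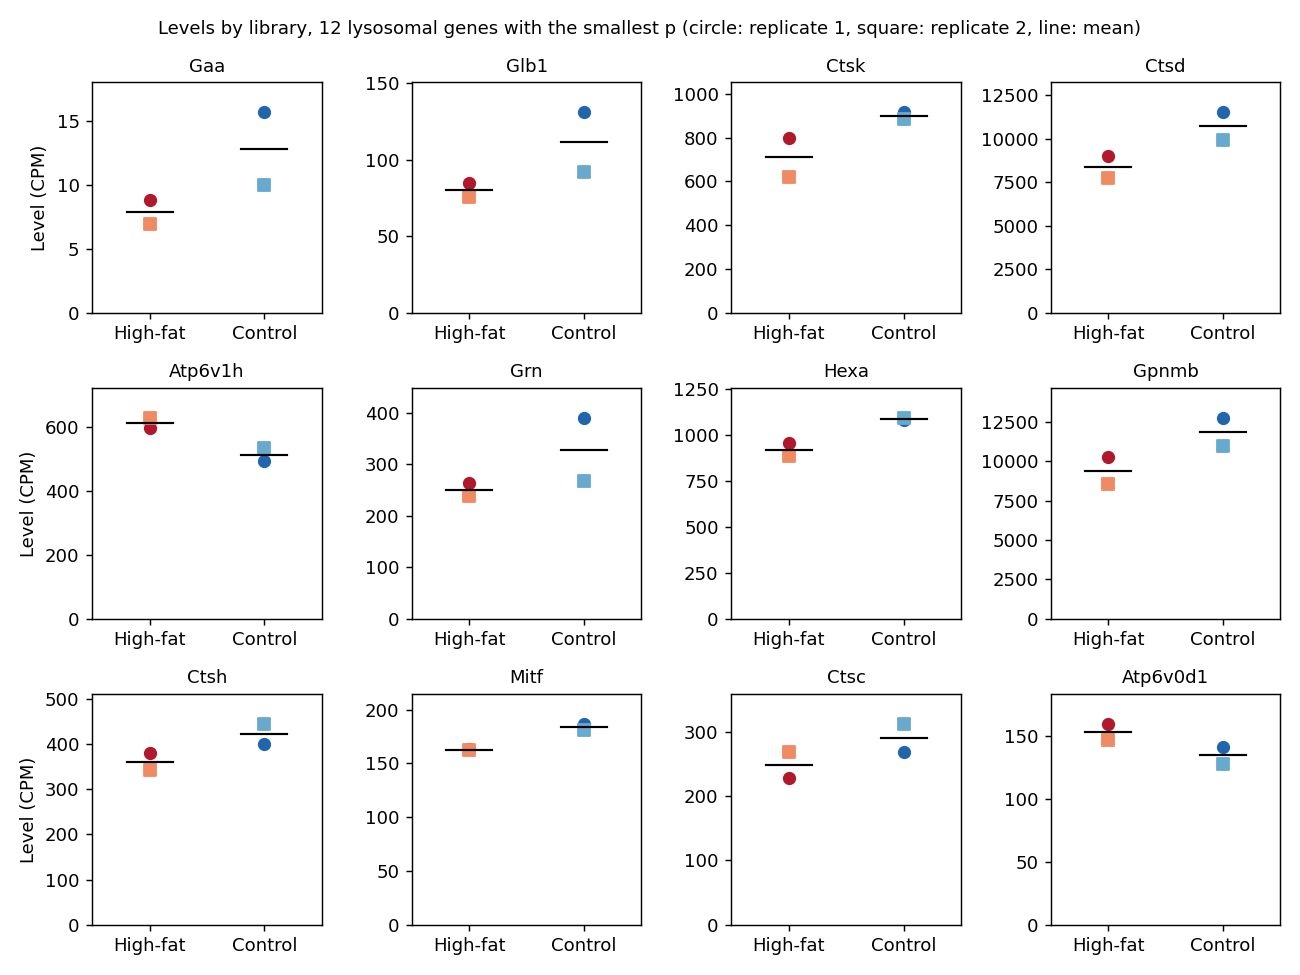
Level in CPM (y axis, from 0) of the 12 lysosomal genes with the smallest p, by diet (x axis); circles are replicate 1, squares replicate 2 and lines the mean. In 11 of the 12 genes the diets do not overlap and in Ctsc they meet. The 12 were picked for the smallest p, which favours separated diets. Over all 36 lysosomal genes the diets do not overlap in 18, against 51.0% of all genes tested. For Gaa, Glb1 and Grn control replicate 1 stands apart from control replicate 2.

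Psap and Grn, precursors cut in the lysosome into smaller active proteins, were both below 0. Grn, which encodes progranulin and its granulins, had 263 and 239 CPM in high-fat libraries, against 389 and 268 CPM in control libraries. The gap between the diets was much smaller than that between the controls (-0.39 ± 0.17, adjusted p = 0.296). Psap had 12335 and 10196 CPM with the high-fat diet, against 14467 and 11956 CPM with the control diet, and overlapped (-0.23 ± 0.16, adjusted p = 0.489).

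Of the genes that release cholesterol from the lysosome, Lipa and Npc1 lay closer to 0 than Npc2, and 0 were called. Lipa, the acid lipase that splits cholesteryl esters, had 2892 and 2467 CPM in high-fat libraries, against 2635 and 2788 CPM in control libraries, so the high-fat libraries enclosed the controls (-0.017 ± 0.13, 95% interval -0.31 to 0.27; -0.14 with the GC and length trend removed). Npc2, which hands cholesterol on to the membrane, had 1134 and 1152 CPM with the high-fat diet, against 1296 and 1285 CPM with the control diet. Here replicates were close and the diets apart (-0.18 ± 0.11, adjusted p = 0.440). Npc1, the membrane partner of Npc2, had a log2 fold change of 0.076 ± 0.12; its exons overlap those of the gene 3110002H16Rik on the other strand.

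Membrane proteins divided into 3 genes above and 3 below 0, with Lamp1 and Lamp2 below 0 once the GC and length trend was removed. Lamp1, a main glycoprotein of the lysosomal membrane, had the fold change nearest to 0 of the set, with 3128 and 3172 CPM in high-fat libraries, against 3131 and 3150 CPM in control libraries (0.0043 ± 0.12, 95% interval -0.26 to 0.27). Lamp2, Cd63 and Cd68, other glycoproteins of this membrane, had log2 fold changes of 0.041, -0.024 and 0.14, and in all 3 the diets overlapped. Gpnmb, a glycoprotein abundant in lipid-laden macrophages, had 10271 and 8551 CPM with the high-fat diet, against 12724 and 10977 CPM with the control diet. Both high-fat libraries were lower, and the log2 fold change of -0.33 ± 0.15 did not pass (adjusted p = 0.305, edgeR). Mcoln1, the calcium channel TRPML1, had -0.25 ± 0.14.

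The 4 proton pump subunits of the set were above 0, except where Atp6v0d2 changed side; their median log2 fold change was 0.15, and 0 were called. With the GC and length trend removed Atp6v0d1 had 0.19, but Atp6v1h had 0.085, Atp6v1a 0.018 and Atp6v0d2 -0.12. Of 14 further pump subunits 5 were below 0. In 3 of the 4 subunits of the set the high-fat libraries were the highest pair, against 5 of the 14 further subunits and 26.1% of all genes. Atp6v1h, the regulatory H subunit of the cytosolic V1 part, at chr1:5073254-5152630 on mm9 (plus strand, 14 exon blocks), had 597 and 628 CPM in high-fat libraries, against 495 and 533 CPM in control libraries (0.25 ± 0.10, adjusted p = 0.271). Atp6v0d1, the d subunit found in most tissues, had 159 and 146 CPM with the high-fat diet, against 142 and 127 CPM with the control diet, a narrow separation (0.18 ± 0.10, adjusted p = 0.383). Atp6v1a, the catalytic A subunit, had a log2 fold change of 0.12 ± 0.12. Atp6v0d2, the d subunit of macrophages and osteoclasts, had 2565 and 2318 CPM with the high-fat diet, against 2296 and 2500 CPM with the control diet. It overlapped, and its log2 fold change of 0.026 ± 0.12 went below 0 when control replicate 1 (-0.046) or high-fat replicate 1 (-0.047) was left out, and with the trend of GC content and exon length removed (-0.12). Per length Atp6v0d2 exceeded Atp6v0d1 by 10.4-fold and 10.2-fold in high-fat libraries, against 10.5-fold and 12.7-fold in control libraries. The RNA of the macrophage form was thus the more abundant of these d subunits in every library, and protein was not measured.

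Among the MiT factors Mitf was the most abundant per length and Tfeb the least. Mitf had 163 and 162 CPM in high-fat libraries, against 186 and 181 CPM in control libraries; replicates were close and the diets apart (-0.17 ± 0.092, adjusted p = 0.367). Tfeb had 221 and 155 counts, or 4.76 and 3.88 CPM, with the high-fat diet, against 252 and 189 counts, or 6.26 and 4.87 CPM, with the control diet (-0.36 ± 0.21, adjusted p = 0.397). Tfe3, which shares much of the role of Tfeb, had 36.7 and 31.7 CPM with the high-fat diet, against 48.8 and 34.4 CPM with the control diet, and overlapped (-0.28 ± 0.17, adjusted p = 0.427). Tfec, the family member best known from macrophages, had 31.1 and 36.7 CPM with the high-fat diet, against 30.9 and 30.7 CPM with the control diet (0.14 ± 0.12, adjusted p = 0.558; -0.037 with the GC and length trend removed). Its high-fat libraries lay above the controls, replicate 1 by very little. Per length Mitf exceeded Tfeb by 18.7-fold and 22.9-fold in high-fat libraries, against 16.3-fold and 20.3-fold in control libraries.

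The 6 genes whose promoters hold TCACGTGA did not share a direction as fitted. Ctsd (-0.36), Mcoln1 (-0.25), Ctsa (-0.17) and Gla (-0.035) had log2 fold changes below 0, and Atp6v1a (0.12) and Atp6v0d1 (0.18) above 0, with 0 of the 6 called. With the GC and length trend removed the values were -0.27, -0.17, -0.048, -0.14, 0.018 and 0.19 in the same order. Gla changed side when single libraries were left out, so the directions of the genes near 0 are uncertain.

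Further genes of the lysosome were read from 3 lists. Of 55 tested genes for other lysosomal enzymes and membrane proteins, 34 were below 0, with a median log2 fold change of -0.066 and 0 called by edgeR or limma-voom; DESeq2 called 1 higher and 1 lower (2.87% of all genes), and 9 had an unadjusted p under 0.05 (16.4%, against 17.0% of all genes). Plbd1, a phospholipase B-like protein, had 15.6 and 18.2 CPM in high-fat libraries, against 25.9 and 31.7 CPM in control libraries (-0.77 ± 0.14, adjusted p = 0.0522, edgeR). It missed the threshold in that fit and passed it in 6 of the 14 alternatives, where its adjusted p ran from 0.000247 to 0.144. Scarb2, the receptor that carries glucocerebrosidase to the lysosome, had 284 and 240 CPM with the high-fat diet, against 196 and 202 CPM with the control diet (0.40 ± 0.11, adjusted p = 0.133). The chloride-proton exchanger Clcn7 (-0.39) and the membrane protein Laptm5 (-0.37) also had diets that did not overlap. The genes named here were picked for the smallest p of their list. Over the 55 genes of the list the diets did not overlap in 54.5%, against 51.0% of all genes.

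Of 14 further pump subunits tested, 9 were above 0, with a median of 0.047 and 0 called by edgeR, DESeq2 or limma-voom; 2 had an unadjusted p under 0.05 (14.3%). They included the membrane subunit Atp6v0a1 on the lower side, with 404 and 442 CPM in high-fat libraries, against 583 and 507 CPM in control libraries (-0.37 ± 0.11, adjusted p = 0.171, edgeR). Atp6v1d (0.26), Atp6v1g1 (0.25) and Atp6ap1 (0.21) were on the higher side. In these 4 genes, picked for the smallest p of their list, the diets did not overlap. Over the 14 subunits this held for 42.9%, against 51.0% of all genes. Of 40 genes for other regulators and autophagy, 25 were below 0, with a median of -0.029 and 0 called by the same 3 tools; 6 had an unadjusted p under 0.05 (15%), so that all 3 lists were near the background. Tsc1, an inhibitor of mTORC1, had 41.2 and 37.2 CPM with the high-fat diet, against 54.1 and 48.4 CPM with the control diet (-0.39 ± 0.11, adjusted p = 0.138). Lamtor3, of the Ragulator complex that holds mTORC1 at the lysosome, had 212 and 225 CPM with the high-fat diet, against 161 and 183 CPM with the control diet (0.34 ± 0.10, adjusted p = 0.162). The autophagy gene Atg7 had -0.34 and Vps18, of the tethering complexes for fusion with lysosomes, -0.47.

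The difference between diets moved with the GC content of the transcripts. Across the 36 genes the log2 fold change correlated with transcript GC at Pearson r = -0.60 and Spearman rho = -0.59, and across 12148 genes with a GC value at r = -0.26 and rho = -0.38. All points come from the same 4 libraries, and genes are not independent replicates. Pump transcripts ran from 41.6% to 53.4% GC and glycosidase transcripts from 46.3% to 59.2%. With the trend of GC content and exon length removed from each library, the correlation over the 36 genes was r = -0.056. The removal is built to take out such a correlation, so this value is no separate result. In that fit 30 of the 36 genes were below 0, and 0 were called by edgeR (1.02% of all genes). Gaa then had a log2 fold change of -0.43, Tfeb -0.066, Atp6v1h 0.085 and Atp6v0d1 0.19, while Ctsk (-0.44), Ctsc (-0.37) and Glb1 (-0.47) were at least as far below 0 as before.

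**Figure D5:**
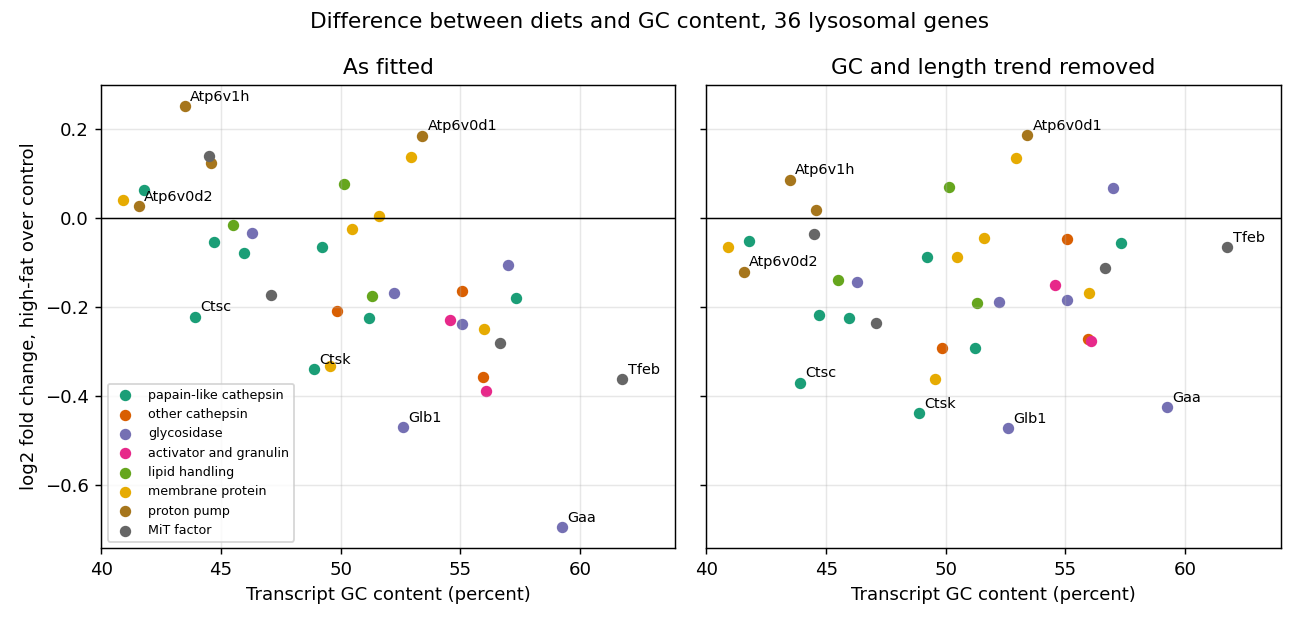
log2 fold change, high-fat over control (y axis), against transcript GC content in percent (x axis) for the 36 lysosomal genes, coloured by role, as fitted (left) and with the trend of GC content and exon length removed (right). Pearson r is -0.60 on the left and -0.056 on the right, where 30 of the 36 genes lie below 0. The removal is built to take out the correlation with GC content.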

How the data were processed

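For each library the authors deposited a table of raw read counts per gene that had not been normalized, together with the gene models, whose exon positions are on mm9. TopHat2 2.0.10, Cufflinks 2.1.1, HTSeq and mm9 are named per the submitters' processing notes, which give no order, settings or strand use in the sources used here. Lines that name no gene (37.5% to 48.5% of the table total for reads aligned at several places, 13.5% to 15.0% for reads in no gene, 0.664% to 0.823% for ambiguous reads) entered neither the library sizes nor any test.

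The low-count filter was edgeR 4.0.16's filterByExpr (minimum count 10, minimum total 15), which left 12747 genes. Diet was the only term of a robust quasi-likelihood fit in edgeR after TMM scaling, with 2 residual degrees of freedom. The Benjamini-Hochberg adjustment covered every gene tested, and calls needed an adjusted p under 0.05. Each SE follows from the fold change and its F statistic, and a 95% interval uses the t quantile of the same test. CPM are counts divided by TMM-scaled library totals, and levels per kb divide them by merged exon length. DESeq2 1.42.0 and limma 3.58.1 (voom) were alternatives. The edgeR, DESeq2 and limma-voom fits were tested on simulated data. Whether they would find differences as small as those of the 36 genes was not tested. Replicates were not copies of each other: the chi-square per degree of freedom was 34.9 between the high-fat libraries and 33.8 between the control libraries.

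GC content is the mean over GENCODE M21 transcripts (GRCm38) matched by RefSeq accession. Its trend, with that of exon length, was estimated per library with mgcv 1.9.3 and used as an offset; this check was chosen after seeing the data. Promoter letters are from RefSeq (GRCm38.p6), and no coordinate was moved between builds. Protein sequences were not analysed here.

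The members and lists were chosen with earlier results of these data known. Every member is named. Values in every library are given for the 12 members with the smallest p, the 6 with the highest level per length, the MiT factors and both d subunits of the pump; of each further list the 4 genes with the smallest p are named. Other values were given per library where they help to read a result.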

Additional observations from a re-analysis of the deposited data

How the results depend on the processing

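The count of the 36 lysosomal genes called higher was 0 in all 14 alternatives, and that called lower was 0 in 13 of them; leaving out 1 library at a time it ran from 0 to 4. The median log2 fold change of the 36 genes ran from -0.17 to -0.081 in those fits. Leaving out 1 library, other lysosomal enzymes were called higher 0 to 1 and lower 0 to 4 times, pump subunits lower 0 to 1, regulators higher 0 to 1 and lower 0 to 1, and all genes higher 5 to 442 and lower 7 to 389. Without a low-count filter 1 other lysosomal enzyme was called higher and 2 lower, 1 regulator lower, and 255 genes higher and 267 lower; DESeq2 gave 1 and 1, and 166 and 200. For all genes the CPM filter (above 1 CPM in 2 libraries) gave 25 higher and 21 lower, and limma-voom 14 and 14. The cause of these shifts was not tested.

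The labels do not say whether the replicate numbers pair the libraries. Deviations of same-numbered libraries correlated at r = 0.089, and with 2 libraries per diet that value cannot show whether they were paired. With a replicate block 1 other lysosomal enzyme and 64 genes in all were called lower. With the trend of GC content and exon length removed, an alternative added once the data had been seen, 1 other lysosomal enzyme and 72 genes in all were called lower.

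Of the 36 genes, 23 kept their direction in every alternative that held them and 13 did not. Of the 14 alternatives, the fit without overlapping genes lacked Ctsb, Ctsz, Ctsa, Glb1 and Npc1. As reported, without any alternative, these 13 genes lay at most 0.21 from 0. Leaving out 1 library, log2 fold changes ran from -0.14 to 0.0044 for Ctsb, -0.28 to 0.14 for Ctsl, -0.019 to 0.13 for Ctso, -0.22 to 0.054 for Ctss, -0.63 to 0.25 for Ctse, -0.14 to 0.064 for Gla, -0.23 to 0.016 for Neu1, -0.13 to 0.090 for Lipa, -0.040 to 0.18 for Npc1, -0.011 to 0.016 for Lamp1, -0.051 to 0.13 for Lamp2 and -0.047 to 0.094 for Atp6v0d2. With the GC and length trend removed they were -0.052 for Ctso, 0.066 for Neu1, -0.045 for Lamp1, -0.065 for Lamp2, -0.12 for Atp6v0d2 and -0.037 for Tfec. Lamp1 was also below 0 with the CPM filter (-0.0021), with RefSeq genes only (-0.0014) and without overlapping genes (-0.00049).

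With 2 libraries per diet, 2 residual degrees of freedom and intervals of about 0.28 to either side, small shared shifts of these genes cannot be told from differences between single libraries.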
